A study of Mus musculus with 27 samples.

Results

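Mouse small intestinal epithelial organoids were compared with mouse embryonic fibroblasts (MEFs) by RNA sequencing, and the difference is described here across all genes by function. The comparison held 12 of the 27 libraries of the series, which were 9 organoid libraries and 3 MEF libraries. Members were chosen as the organoid library of each culture that was deposited in a file whose code lacks the letter T, and as all MEF libraries. The organoids came from the jejunum of wild-type C57BL/6 male littermates, 8 to 12 weeks old, with 3 mice from each of 2 specific pathogen-free facilities (SR and SE) and 3 from a germ-free facility (GF). They were grown embedded in Matrigel in IntestiCult medium to passage 5 to 8, so that each library stands for 1 culture of 1 mouse. MEFs are connective tissue cells of the embryo, here of C57BL/6 origin, untreated and kept in DMEM with fetal calf serum, and nothing in the labels says whether their 3 libraries came from separate cultures, so that p-values measure a spread between samples that may be technical. Cell type, medium, Matrigel and the age of the source differed together between the groups and cannot be told apart.

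The label and the file code of the organoid libraries disagreed. By label all 9 carried TNF (5 ng/mL for 8 hr), a cytokine that switches on NF-kB target genes, whereas their file codes lacked the letter that marks TNF. Nfkbia, a target that encodes the NF-kB inhibitor, had a mean of 31.1 CPM in these 9 libraries and 197 CPM in the partner libraries of the same cultures that are labelled untreated, and was lower in 9 of 9 cultures. Nfkb2, Tnfaip3, Relb and C3, which the paper names as TNF targets, were also lower in 9 of 9 cultures (C3 0.536 against 66.7 CPM). All 10 targets checked had the lower mean in these 9 libraries, although Nfkbie was lower in 7 of 9 cultures. These levels went with the file codes and not with the labels. The 9 libraries are called organoid libraries below, and the 9 partners were used as an alternative. CPM are read counts relative to the TMM-scaled total of each library. Totals on genes ranged from 11440041 to 35283218 in the organoid libraries and from 25187095 to 41721039 in the MEF libraries. Culture Z911 was the shallowest and had the highest mt-Co1 level (30721 CPM against a median of 13782 in the 9 libraries). Across genes, log2 levels correlated with r of 0.959 to 0.986 between organoid libraries, of 0.982 to 0.990 between MEF libraries, and of 0.572 to 0.611 between the groups.

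The intestinal epithelium is a single sheet of cells that is renewed from stem cells in the crypts. Their progeny become absorptive enterocytes, whose apical brush border digests and takes up nutrients, or secretory cells, which are the goblet, Paneth, enteroendocrine and tuft cells. Fibroblasts instead secrete and remodel the collagenous matrix and pull on it through contractile actin bundles. The transcription factors HNF4A, CDX2 and ELF3 are well-known regulators of the intestinal epithelium, whereas factors such as TWIST1, ZEB1 and PRRX1 mark mesenchymal cells.

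Of 13201 genes tested, 4371 (33.1%) were higher in organoids and 4066 (30.8%) were higher in MEFs, where a gene was called at an edgeR adjusted p under 0.05 and a log2 difference of at least 0.5 in size. With at least 2 in size, 2227 and 1770 genes were called. The median log2 difference of all tested genes was 0.01, and these shares and this median are the background for every list below. The values of the groups did not overlap for 60.3% of the tested genes. Differences are given as organoids minus MEFs on the log2 scale, with ± marking the SE of the fit, so that negative values mean a higher level in MEFs. For genes with at most 3 counts in every library of a group, the fold is a lower bound set by 3 counts per library.

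The 4 marker genes of the organoids were high in all 9 organoid libraries and near 0 in all MEF libraries. Pigr (ENSMUSG00000026417, chromosome 1, 130826684 to 130852249 in GRCm38), the receptor that carries antibodies across the epithelium, lay between 1635 and 2106 CPM in the organoid libraries (median 1965) and at 2.87, 3.61 and 3.93 CPM in the MEF libraries, with a log2 difference of 9.14 ± 0.16, edgeR adjusted p = 1.2e-16. Hnf4a (ENSMUSG00000017950, chromosome 2, 163506808 to 163572910) lay between 1026 and 1178 CPM in the organoid libraries (median 1082) and at 1.42, 1.73 and 2.10 CPM in the MEF libraries, with a log2 difference of 9.31 ± 0.16, edgeR adjusted p = 8.0e-17. The groups did not overlap for either gene, and the 9 cultures lay close together. Muc13 (ENSMUSG00000022824, chromosome 16, 33794037 to 33819934), a mucin anchored in the apical membrane, lay between 608 and 726 CPM in the organoid libraries (median 666) and at 0.545, 0.727 and 0.993 CPM in the MEF libraries, with a log2 difference of 9.82 ± 0.19, edgeR adjusted p = 1.9e-16. Elf3 (ENSMUSG00000003051, chromosome 1, 135253575 to 135258568) lay between 272 and 405 CPM in the organoid libraries (median 342) and at 0.497, 0.527 and 0.649 CPM in the MEF libraries, with a log2 difference of 9.22 ± 0.21, edgeR adjusted p = 9.9e-16. All 4 were therefore present in every organoid library, and none exceeded 3.93 CPM in a MEF library.

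**Figure D1:**
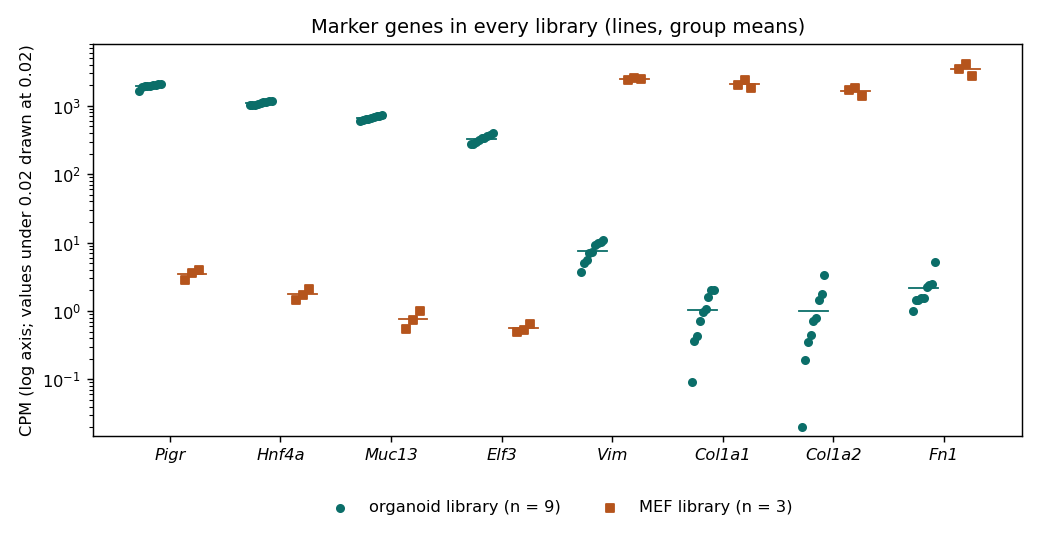
CPM of the 4 organoid markers and of 4 fibroblast and matrix genes in each organoid library (circles) and each MEF library (squares), on a log axis with lines at the group means. Every organoid library lies above every MEF library for Pigr, Hnf4a, Muc13 and Elf3, and below every MEF library for Vim, Col1a1, Col1a2 and Fn1.

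The fibroblast markers separated the groups in the other direction, with gaps. Of the 12 listed, 9 passed the filter on low counts, and 8 of these were higher in MEFs. Vim, the intermediate filament of mesenchymal cells, lay between 3.71 and 10.95 CPM in the organoid libraries (median 7.22) and at 2349.9, 2583 and 2463 CPM in the MEF libraries (log2 difference -8.33 ± 0.24, edgeR adjusted p = 1.1e-14). Col1a1, a chain of type I collagen, lay between 0.0903 and 2.02 CPM in the organoid libraries (median 0.961) and at 2026, 2400.2 and 1797 CPM in the MEF libraries (log2 difference -10.83 ± 0.34, edgeR adjusted p = 3.9e-14). Several defining markers were at or near 0 in these MEFs. Thy1 and Lum had 0 counts in all 12 libraries, Dcn had at most 9 counts in any library, and Pdgfra had 1.56, 0.677 and 0.115 CPM in the MEF libraries. Fap, which marks activated fibroblasts, was the exception in direction, at 0 to 2.70 CPM in the organoid libraries (median 1.15) and 0 in all MEF libraries, at least 9.86-fold higher in organoids over the group means, with overlapping values. Markers of other cell types were low. Of 12 immune markers 2 passed the filter. Of these, Itgam was higher in organoids, at 0.813 to 9.17 CPM (median 5.32), Cd68 was not called (-0.42 ± 0.76), and the pan-leukocyte gene Ptprc had at most 5 counts in any library. The summed immune markers were 5.16 to 13.7 CPM in the organoid libraries (median 9.03) and 1.85, 3.54 and 2.98 CPM in the MEF libraries. Of 10 endothelial markers 4 passed, with Esam (5.42 ± 1.14) and Vwf (at least 7.79-fold) higher in organoids, Erg higher in MEFs (-5.59 ± 1.12) and Egfl7 not called. Pecam1 had at most 15 counts. Their sum was 2.15 to 12.1 CPM in the organoid libraries (median 7.18) and 7.68, 8.63 and 7.79 CPM in the MEF libraries. Of 10 muscle, neural and glial markers 2 passed, and Tubb3 was higher in MEFs (26.2, 31.0 and 25.4 CPM against at most 4.79 in organoids). Here and throughout, fewer cells of a type and less RNA per cell cannot be told apart in these bulk libraries.

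For genes with strong expression in one group, the level in the other group was compared as well. Over the 13 brush border hydrolases past a log2 difference of +7, the summed level was 0.151%, 0.149% and 0.224% of the organoid mean in the MEF libraries. In the opposite direction, the 22 matrix genes past a log2 difference of -7 stood at 0.0185% to 0.166% of the MEF mean in the organoid libraries, lowest in culture Z911 and highest in culture Z919. The genes of both sets were chosen by this difference, so these shares are descriptions. Over all genes called higher in organoids and past a log2 difference of 7, the median difference hardly changed with level. It was 9.18, 9.15 and 9.14 for organoid means of 100 to 300, 300 to 1000 and at least 1000 CPM. For genes higher in MEFs it was -9.30, -9.97 and -10.44 at the same MEF levels. A log2 difference near 9 was therefore common to many organoid genes and is not particular to one of them. The origin of the low level in the other group was not tested.

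**Figure D2:**
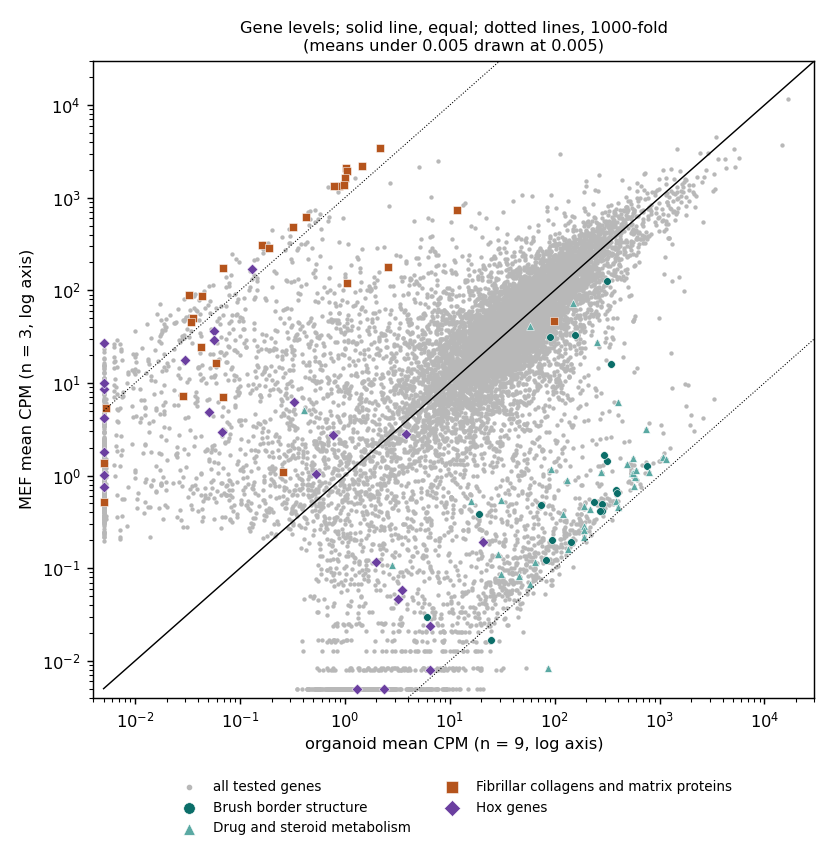
Mean CPM of each of the 13201 tested genes in MEFs (vertical, log axis, n = 3) against organoids (horizontal, log axis, n = 9), with 4 gene lists in colour. Most brush border and drug metabolism genes lie between the solid line of equal levels and the lower dotted line of a 1000-fold difference. Their median log2 differences were 8.81 and 8.98, short of the dotted line. Most matrix genes lie near the upper dotted line (median -10.27), and Hox genes are found on both sides of the solid line.

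**Figure D3:**
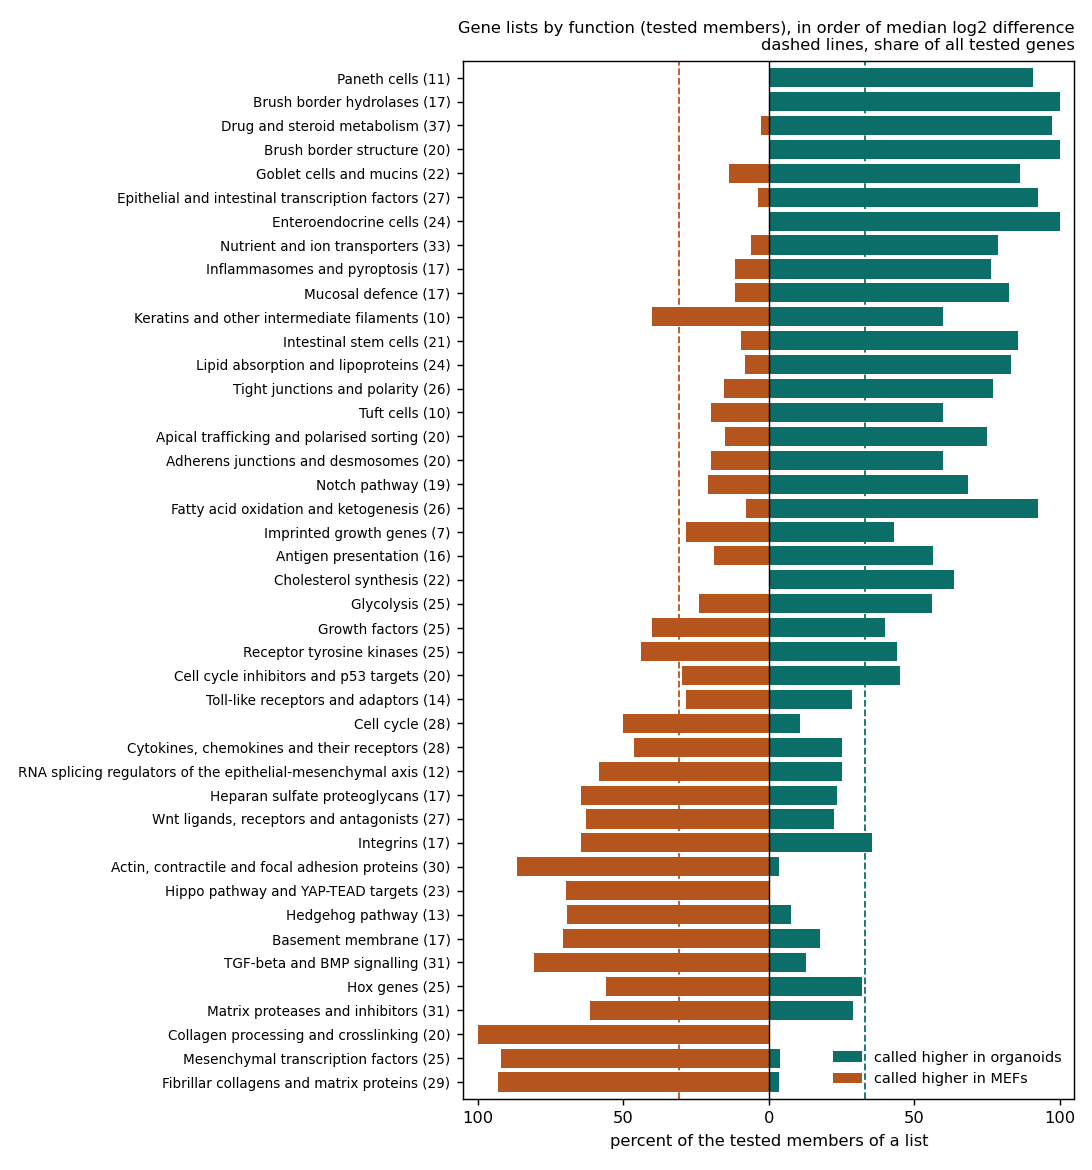
Share of the tested members of 43 gene lists (number tested in brackets) called higher in organoids (right, green) or in MEFs (left, orange), ordered by the median log2 difference. The dashed lines mark 33.1% and 30.8%, the shares of all tested genes. Brush border, enteroendocrine and hydrolase lists reach 100% on the right, and collagen processing reaches 100% on the left. For 19 of the 24 enteroendocrine genes the filter on low counts set the direction.

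Transcription factors split the groups sharply. Of 27 tested epithelial and intestinal factors, 25 were higher in organoids and 1 in MEFs, with a median log2 difference of 8.61, or 8.35 with genes near 0 counts at their bound. Beside Hnf4a and Elf3, the homeobox factor Cdx1 lay between 362 and 483 CPM in the organoid libraries (median 393) and at 0.521, 0.376 and 0.688 CPM in the MEF libraries (log2 difference 9.60 ± 0.20, edgeR adjusted p = 3.9e-16). Its partner Cdx2, added to complete the pair, had 146 to 216 CPM in organoids (median 173) and 0.308, 0.351 and 0.344 CPM in the MEF libraries. Maf ran the other way (1.08 to 13.5 CPM against 19.8, 13.8 and 18.7, log2 difference -1.29 ± 0.45, edgeR adjusted p = 0.016), a call that was lost without MEF replicate 1 or 3 (-1.18 and -1.23). Of 25 tested mesenchymal factors 23 were higher in MEFs, with a median of -9.23, or -5.94 with genes near 0 counts at their bound. For 14 of the 25, every library of 1 group had at most 3 counts, so the filter set their direction. Prrx1, a homeobox gene of limb and facial mesenchyme, lay between 0 and 2.43 CPM in the organoid libraries (median 0.188) and at 187, 176 and 169.6 CPM in the MEF libraries (log2 difference -7.79 ± 0.57, edgeR adjusted p = 2.8e-09). Runx2, the master regulator of bone formation, lay between 0 and 0.542 CPM in the organoid libraries (median 0.169) and at 62.9, 84.8 and 85.8 CPM in the MEF libraries (log2 difference -8.65 ± 0.39, edgeR adjusted p = 4.1e-12), and Tcf4 showed the smaller difference of -2.97 ± 0.19 (16.3 against 128 CPM). Osr2 was the exception. This zinc finger gene lay between 42.6 and 63.8 CPM in the organoid libraries (median 47.7) and at 1.87, 1.35 and 1.15 CPM in the MEF libraries (log2 difference 5.11 ± 0.24, edgeR adjusted p = 6.3e-12), without overlap.

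Hox genes, which set position along the body axis and are expressed in the order of their place in the cluster, divided the groups by cluster. Of 39 listed genes 25 were tested, 8 were higher in organoids and 14 in MEFs. All 7 tested Hoxb genes were higher in organoids, and none of the 11 tested Hoxa genes was. For 13 of the 25 tested Hox genes, every library of 1 group had at most 3 counts, so the filter set their direction. Hoxb3, Hoxb4 and Hoxb5 were at 0 in culture Z919 and overlapped the MEF values, with organoid medians of 1.665, 0.714 and 0.752 CPM. Their highest levels were in Z917 and Z908 (9.42 and 6.27 CPM for Hoxb5). The 9 tested genes of paralogue groups 9 to 13 in the Hoxa and Hoxd clusters were all higher in MEFs, and their summed level was 93.2, 86.5 and 109 CPM for Hoxa and 193, 192 and 190 CPM for Hoxd in the MEF libraries against at most 0.271 and 0.562 CPM in an organoid library. Hoxd13, the gene at the posterior end of its cluster and a regulator of digit formation, lay between 0 and 0.562 CPM in the organoid libraries (median 0.0320) and at 177, 173 and 161 CPM in the MEF libraries (log2 difference -10.05 ± 0.43, edgeR adjusted p = 1.9e-12). Hoxa10 lay between 0 and 0.114 CPM in the organoid libraries (median 0.0562) and at 34.3, 30.3 and 43.4 CPM in the MEF libraries, and Hoxa9 lay between 0 and 0.181 CPM in the organoid libraries (median 0.0320) and at 26.8, 26.2 and 33.2 CPM in the MEF libraries. Hoxb9 lay between 2.05 and 70.4 CPM in the organoid libraries (median 11.2) and at 0.190, 0.276 and 0.115 CPM in the MEF libraries (log2 difference 6.68 ± 1.26, edgeR adjusted p = 1.7e-04). Its level differed widely among the cultures, and so did the sum of all Hox genes, which was 163 CPM in culture Z917, 111 CPM in Z908 and 6.19 CPM in Z919, with the other 6 cultures between 16.6 and 44.4 CPM. Hoxb8 and Hoxb6 were at least 56.9-fold and 56.0-fold higher in organoids by their means. Hoxa3 did not pass the test (log2 difference 0.46 ± 0.57, edgeR adjusted p = 0.48), nor did Hoxa4 (log2 difference -1.86 ± 0.96, edgeR adjusted p = 0.091). Hoxd4 was the only Hoxd gene tested that was higher in organoids, at 0.883 to 3.00 CPM. The 9 listed Hoxc genes stayed below the filter in both groups, with a summed level of at most 0.160 CPM in any library.

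**Figure D4:**
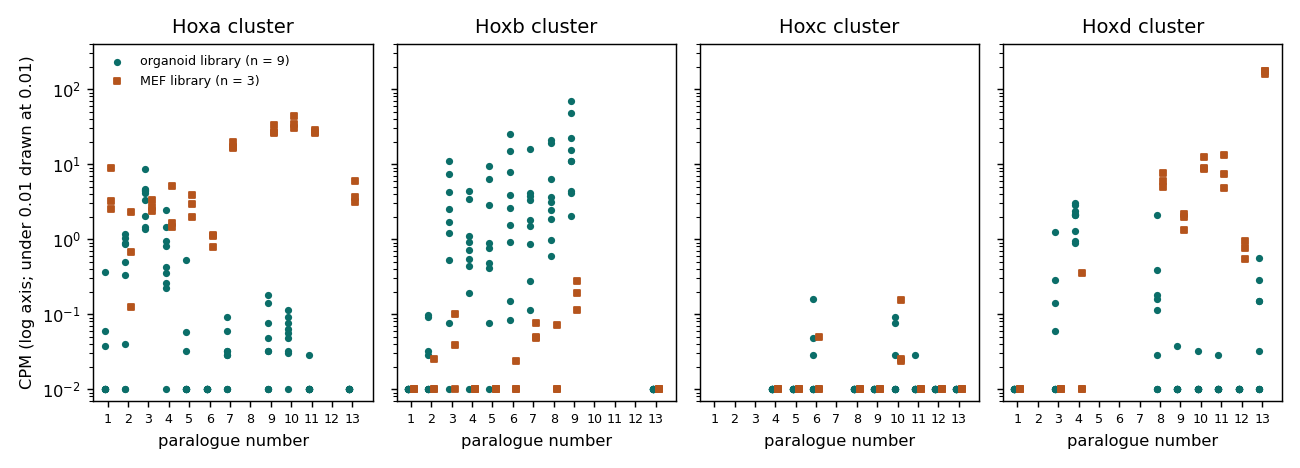
CPM of each Hox gene in every organoid library (circles) and MEF library (squares) on a log axis, by cluster and paralogue number. Most organoid points lie above the MEF points for Hoxb3 to Hoxb9, MEF points lie above for paralogues 9 to 13 of Hoxa and Hoxd, and the Hoxc cluster is near 0 in both.

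RNA splicing regulators that separate epithelial from mesenchymal isoforms also differed. Of 12 tested, 3 were higher in organoids and 7 in MEFs (median -1.13). Esrp1, an epithelial splicing factor, lay between 156 and 237 CPM in the organoid libraries (median 195) and at 0.166, 0.150 and 0.344 CPM in the MEF libraries (log2 difference 9.82 ± 0.25, edgeR adjusted p = 3.2e-15), with Esrp2 at 5.43 ± 0.20 and Rbm47 at 5.22 ± 0.12. Qk, an RNA-binding protein of mesenchymal and glial cells, was its mirror image and lay between 0.0800 and 0.800 CPM in the organoid libraries (median 0.376) and at 291, 283 and 286 CPM in the MEF libraries (log2 difference -9.52 ± 0.25, edgeR adjusted p = 4.1e-15). Rbfox2 and Mbnl2 were also higher in MEFs (-2.32 ± 0.093 and -0.86 ± 0.10), whereas Celf1 (-0.24 ± 0.076) and Mbnl1 (0.46 ± 0.086) stayed under the size asked for.

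Cell contacts followed the epithelial pattern with a switch of cadherins. Of 20 tested genes of adherens junctions and desmosomes 12 were higher in organoids and 4 in MEFs (median 2.16). Cdh1, the classical epithelial cadherin, lay between 885 and 1064 CPM in the organoid libraries (median 1012) and at 1.52, 1.00 and 1.80 CPM in the MEF libraries (log2 difference 9.44 ± 0.19, edgeR adjusted p = 2.8e-16). Cdh17, the liver-intestine cadherin, had a mean of 1031 against 3.55 CPM, and the adhesion molecule Epcam a mean of 1004 against 1.43 CPM. In MEFs the neural cadherin Cdh2 and the placental cadherin Cdh3 were the higher ones. Cdh2 lay between 0 and 0.448 CPM in the organoid libraries (median 0.228) and at 166, 188 and 129.9 CPM in the MEF libraries (log2 difference -9.57 ± 0.30, edgeR adjusted p = 4.0e-14), and Cdh3 lay between 0 and 0.506 CPM in the organoid libraries (median 0.0903) and at 138, 164 and 134 CPM in the MEF libraries (log2 difference -9.85 ± 0.36, edgeR adjusted p = 2.9e-13). Ncam1, a neural adhesion molecule, was at least 118-fold higher in MEFs. The catenins that link cadherins to actin were near equal, with Ctnnb1 at 0.31 ± 0.074 and Ctnna1 at -0.16 ± 0.081, both not called.

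Of 26 tested genes of tight junctions and polarity 20 were higher in organoids and 4 in MEFs (median 5.09). The claudins, which seal or open the paracellular path, included Cldn15 (mean 555 against 0.974 CPM, 9.12 ± 0.18), Cldn7 (mean 531 against 0.821 CPM, 9.39 ± 0.22) and Cldn2 (mean 254 against 0.480 CPM, 9.02 ± 0.25). The scaffold Tjp1 was nevertheless higher in MEFs, where it had 239.5, 248 and 243 CPM against 70.9 to 118 CPM in organoids (log2 difference -1.43 ± 0.12, edgeR adjusted p = 1.0e-08), as were Cgnl1 (-5.01 ± 0.42) and Jam3 (-10.38 ± 0.59). Cldn12 (-0.01 ± 0.11) and Pard3 (0.04 ± 0.14) did not pass the test. Among keratins and other intermediate filaments, 6 of 10 tested were higher in organoids and 4 in MEFs (median 6.71, or 6.23 with genes near 0 counts at their bound). Krt8, the type II keratin of simple epithelia, lay between 1790.4 and 2194 CPM in the organoid libraries (median 1901) and at 4.88, 3.44 and 5.23 CPM in the MEF libraries (log2 difference 8.79 ± 0.18, edgeR adjusted p = 3.2e-16), with Krt19 (7.22 ± 0.15) and Krt18 (8.64 ± 0.27) in the same direction. Nes, a filament of progenitor cells, was on the side of Vim (2.35 against 290.2 CPM, -6.99 ± 0.40), and so was one keratin, Krt80 (-7.15 ± 0.74).

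Brush border genes were higher in organoids throughout. All 20 tested genes of its structure were higher in organoids, with a median log2 difference of 8.81, or 8.31 with genes near 0 counts at their bound. Vil1, which bundles the actin of the microvilli, lay between 573 and 1023 CPM in the organoid libraries (median 717) and at 1.09, 0.878 and 1.83 CPM in the MEF libraries (log2 difference 9.28 ± 0.30, edgeR adjusted p = 5.8e-14). The protocadherins that join neighbouring microvilli followed, with Cdhr2 (mean 392 against 0.652 CPM, 9.20 ± 0.36) and Cdhr5 (mean 387 against 0.690 CPM, 9.17 ± 0.43). All 17 tested brush border hydrolases were higher in organoids too (median 9.18, or 8.46 with genes near 0 counts at their bound). Sis, the sucrase-isomaltase that splits dietary sugars (ENSMUSG00000027790, chromosome 3, 72888557 to 72967863), lay between 945 and 3622 CPM in the organoid libraries (median 1713) and at 2.53, 1.63 and 4.93 CPM in the MEF libraries (log2 difference 9.50 ± 0.63, edgeR adjusted p = 6.4e-10). Mgam, the maltase-glucoamylase, lay between 853 and 1606 CPM in the organoid libraries (median 1211) and at 1.68, 1.86 and 2.48 CPM in the MEF libraries (log2 difference 9.30 ± 0.27, edgeR adjusted p = 1.5e-14), and Naaladl1, a peptidase, had a mean of 419 against 1.54 CPM. Within the organoid group these enzymes varied more than most genes. Their median coefficient of variation was 51.4%, against 15.8% for all genes with a mean of at least 10 CPM, and the summed level ran from 2805 CPM in culture Z919 to 8494 CPM in culture Z918, which both came from the germ-free facility.

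Promoters of brush border genes were searched for the letters CAAAGTCCA, a site preferred by HNF4 proteins, on both strands of the RefSeq promoter windows of GRCm38.p6, each 300 bases long from 250 before to 50 after the transcription start. The letters were found in 0.909% of 4401 promoters of genes higher in organoids, in 0.195% of 4100 promoters of genes higher in MEFs, in 0.510% of 13140 promoters of all tested genes and in 0.475% of all 32851 promoters. Among the lists, 1 of 20 promoters of brush border structure genes, 2 of 21 of the hydrolases, 0 of 22 of the lipid absorption genes and 4 of 47 of the drug metabolism genes held them, as did 1 of 35 of the actin and focal adhesion genes, 0 of 24 of the Hippo list and 0 of 31 of the fibrillar matrix genes. TTAATNATT, the core of an HNF1 site, was present in 1.32%, 0.683%, 0.845% and 1.47%, CCATAAA, a site of CDX2, in 1.98%, 1.63%, 1.72% and 2.75%, and AGATAA, a site of GATA factors, in 8.00%, 5.41%, 6.55% and 11.2%, in the order of genes higher in organoids, genes higher in MEFs, all tested genes and all promoters. These shares are descriptions, and a match is not evidence of binding. The 3 brush border promoters with the HNF4 letters are shown 5′ to 3′ on the strand of the gene, with the match in capitals, because these genes (Alpi, the intestinal alkaline phosphatase; Treh, the trehalase; Pdzk1, a scaffold for apical transporters) had log2 differences of 10.01, 8.71 and 7.56.

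Alpi, chr1:87101557-87101856, minus strand: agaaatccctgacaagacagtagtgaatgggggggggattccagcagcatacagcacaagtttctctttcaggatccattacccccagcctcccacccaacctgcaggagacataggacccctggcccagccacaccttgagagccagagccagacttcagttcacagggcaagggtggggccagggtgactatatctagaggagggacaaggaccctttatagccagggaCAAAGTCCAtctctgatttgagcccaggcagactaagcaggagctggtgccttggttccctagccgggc
Treh, chr9:44672983-44673282, plus strand: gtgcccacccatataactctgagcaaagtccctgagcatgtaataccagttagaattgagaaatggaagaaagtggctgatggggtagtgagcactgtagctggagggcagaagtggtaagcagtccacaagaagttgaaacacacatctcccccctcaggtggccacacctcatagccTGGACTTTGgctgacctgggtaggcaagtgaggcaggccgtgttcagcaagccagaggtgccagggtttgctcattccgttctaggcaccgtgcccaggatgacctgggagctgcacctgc
Pdzk1, chr3:96829815-96830114, plus strand: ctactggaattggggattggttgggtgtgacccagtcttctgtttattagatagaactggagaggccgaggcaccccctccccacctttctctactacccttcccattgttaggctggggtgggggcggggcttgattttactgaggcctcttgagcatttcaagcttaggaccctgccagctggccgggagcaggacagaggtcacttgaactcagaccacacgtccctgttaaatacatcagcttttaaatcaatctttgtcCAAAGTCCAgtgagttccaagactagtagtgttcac

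Absorption genes other than the enzymes were higher in organoids as groups. Of 33 tested nutrient and ion transporters 26 were higher in organoids and 2 in MEFs (median 7.42, or 6.26 with genes near 0 counts at their bound). Slc5a1, the apical sodium-glucose cotransporter, lay between 387 and 1081 CPM in the organoid libraries (median 590.1) and at 0.734, 0.627 and 1.87 CPM in the MEF libraries (log2 difference 9.48 ± 0.54, edgeR adjusted p = 9.7e-11). Slc12a2, the basolateral chloride importer, had a mean of 987 against 50.02 CPM (4.30 ± 0.14), and the glutamine carrier Slc1a5 differed less (1.46 ± 0.16). The 2 transporters higher in MEFs form one complex. Slc7a5, the light chain of the large neutral amino acid carrier, lay between 68.2 and 149.7 CPM in the organoid libraries (median 98.0) and at 415, 476 and 329 CPM in the MEF libraries (log2 difference -2.01 ± 0.18, edgeR adjusted p = 4.8e-08), and its heavy chain Slc3a2 differed by -1.16 ± 0.11. Slc6a6 (0.42 ± 0.13) and Slc16a1 (0.23 ± 0.080) were not called. Of 24 tested genes of lipid absorption and lipoproteins 20 were higher in organoids and 2 in MEFs (median 6.06, or 5.47 with genes near 0 counts at their bound). Apob, the backbone of chylomicrons, lay between 269 and 738 CPM in the organoid libraries (median 449.6) and at 0.711, 4.92 and 1.34 CPM in the MEF libraries (log2 difference 7.61 ± 0.60, edgeR adjusted p = 6.5e-09), and Mttp, which loads lipid onto it, lay between 254 and 654 CPM in the organoid libraries (median 342) and at 3.58, 4.14 and 3.82 CPM in the MEF libraries (log2 difference 6.83 ± 0.43, edgeR adjusted p = 3.4e-10). The acyl-CoA synthetase Acsl5 was high in both groups (581 against 186 CPM). The fatty acid binding proteins Fabp5 (-1.36 ± 0.16) and Fabp4 (at least 5.08-fold) were higher in MEFs, and Plin2 and Apoe were not called. Apoe had 13.7 CPM in MEF replicate 2 against 1.02 and 0.840 CPM in the others, and without that library its difference was 3.72 and was called.

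Drug and steroid metabolism had nearly a single direction. Of 37 tested genes 36 were higher in organoids and 1 in MEFs (median 8.98). Aldh1b1, a mitochondrial aldehyde dehydrogenase, lay between 930.3 and 1243 CPM in the organoid libraries (median 1046) and at 1.14, 1.66 and 1.95 CPM in the MEF libraries (log2 difference 9.43 ± 0.20, edgeR adjusted p = 4.7e-16). Ces2a, a carboxylesterase that hydrolyses ester drugs, lay between 520.1 and 2042 CPM in the organoid libraries (median 1271) and at 1.09, 1.25 and 2.18 CPM in the MEF libraries (log2 difference 9.63 ± 0.60, edgeR adjusted p = 3.1e-10), and the glutathione transferase Gsta1 lay between 381 and 1399 CPM in the organoid libraries (median 736) and at 0.734, 1.204 and 1.30 CPM in the MEF libraries (log2 difference 9.56 ± 0.61, edgeR adjusted p = 4.8e-10). Both belong to families of similar genes whose reads may be shared, so that the level of a single member is uncertain. Cyp1b1 was the exception, a dioxin-inducible oxidase that lay between 0 and 2.47 CPM in the organoid libraries (median 0.0285) and at 5.12, 5.34 and 4.70 CPM in the MEF libraries (log2 difference -3.63 ± 1.22, edgeR adjusted p = 0.014). The summed level of the list differed among cultures, from the lowest in Z911 (7434 CPM) to the highest in Z918 (16904 CPM).

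Genes of each listed crypt and secretory lineage were found in organoids. Of 21 tested stem cell genes 18 were higher in organoids and 2 in MEFs (median 6.43, or 4.32 with genes near 0 counts at their bound). Olfm4, a marker of crypt base stem cells, lay between 129 and 681 CPM in the organoid libraries (median 183) and at 0.687, 1.33 and 0.497 CPM in the MEF libraries (log2 difference 8.18 ± 0.75, edgeR adjusted p = 4.6e-08), with culture Z919 at 681 CPM far above the next. Smoc2 was high in organoids and present in MEFs (571 against 49.4 CPM), and the membrane protein Prom1 differed by 8.44 ± 0.21. The hyaluronan receptor Cd44 and the Polycomb gene Bmi1 were higher in MEFs (-2.47 ± 0.27 and -0.98 ± 0.18), and Ephb3 was not called (0.30 ± 0.30). Of 11 tested Paneth cell genes 10 were higher in organoids (median 9.61, or 5.68 with genes near 0 counts at their bound). Lyz1, the lysozyme of Paneth cells, lay between 84.3 and 179 CPM in the organoid libraries (median 128) and at 0.0948, 0.125 and 0.344 CPM in the MEF libraries (log2 difference 9.61 ± 0.39, edgeR adjusted p = 1.1e-12), and Itln1, a lectin that binds microbial sugars, lay between 70.8 and 289.5 CPM in the organoid libraries (median 149.5) and at 0.166, 0.201 and 0.229 CPM in the MEF libraries (log2 difference 9.53 ± 0.73, edgeR adjusted p = 4.5e-09). The alpha-defensin Defa24 was at least 308-fold higher, with a level that is uncertain because defensin genes are near-identical copies. Nupr1 did not pass the test (-0.40 ± 0.28).

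Of 22 tested genes of goblet cells and mucins 19 were higher in organoids and 3 in MEFs (median 8.78, or 6.25 with genes near 0 counts at their bound). Fcgbp, a mucus protein, lay between 745 and 1295 CPM in the organoid libraries (median 1030.3) and at 1.33, 0.953 and 2.33 CPM in the MEF libraries (log2 difference 9.46 ± 0.31, edgeR adjusted p = 6.2e-14), and Tff3, a trefoil peptide, lay between 252 and 354 CPM in the organoid libraries (median 284) and at 0.403, 0.401 and 0.497 CPM in the MEF libraries (log2 difference 9.40 ± 0.20, edgeR adjusted p = 4.8e-16). The genes higher in MEFs were Creb3l1 (-1.38 ± 0.24), Sytl2 (-1.10 ± 0.41, with overlapping values and no call without MEF replicate 2 or 3, at -0.93 and -1.05) and the mucin Muc1 (at least 7.84-fold). Enteroendocrine genes were higher in organoids in 24 of 24 cases (median 8.22, or 5.87 with genes near 0 counts at their bound). For 19 of the 24, no MEF library had more than 3 counts, so the filter set their direction. Gcg, the precursor of glucagon-like peptides, lay between 139 and 330.4 CPM in the organoid libraries (median 265) and at 0.284, 0.201 and 0.458 CPM in the MEF libraries (log2 difference 9.61 ± 0.44, edgeR adjusted p = 4.5e-12), with the granins Chgb (mean 84.2 against 0.125 CPM, 9.50 ± 0.42) and Chga (mean 45.0 against 0.0874 CPM, 9.0 ± 0.36). Of 18 listed tuft cell genes 10 were tested, and 6 were higher in organoids and 2 in MEFs (median 4.90, or 2.5 with genes near 0 counts at their bound), and the cation channel Trpm5 lay between 0.714 and 5.61 CPM in organoids with 0 counts in MEFs (at least 25.6-fold higher). Il17rb was at least 25.6-fold higher in organoids, and Cd24a, which other epithelial cells express as well, by 0.65 ± 0.10. Dclk1, often used as a tuft cell marker, was higher in MEFs, at 45.3, 50.01 and 38.8 CPM against 0.0903 to 2.33 CPM in organoids (log2 difference -5.42 ± 0.52, edgeR adjusted p = 7.8e-08), as was Ptgs1 (-3.30 ± 0.86), and Avil and Sh2d6 were not called.

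The 9 organoid cultures differed in how much of each lineage they expressed. Goblet cell genes summed to 2422 to 3067 CPM and cell cycle genes to 4356 to 5193 CPM, both a narrow range for the sum. The goblet sum rests largely on abundant members such as Fcgbp, with a mean of 1044.3 CPM. Gene by gene the goblet list varied more. Its members with a mean of at least 10 CPM had a median coefficient of variation of 23.989%, above that of all genes given below. Paneth cell genes ran from 239.8 CPM in Z908 to 614 CPM in Z919, and enteroendocrine genes from 327 CPM in Z911 to 684 CPM in Z918. Culture Z919 had the highest sums of stem cell and Paneth cell genes and the lowest of hydrolase and lipid absorption genes, whereas Z918 had the highest hydrolase, lipid absorption and drug metabolism sums. Each facility contributed cultures on both sides of the median for the hydrolases, and no test between facilities was made. Over all genes with a mean of at least 10 CPM the median coefficient of variation was 15.8% among the 9 organoid libraries, 14.2%, 13.8% and 13.6% within SR, SE and GF, and 11.1% among the 3 MEF libraries.

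**Figure D5:**
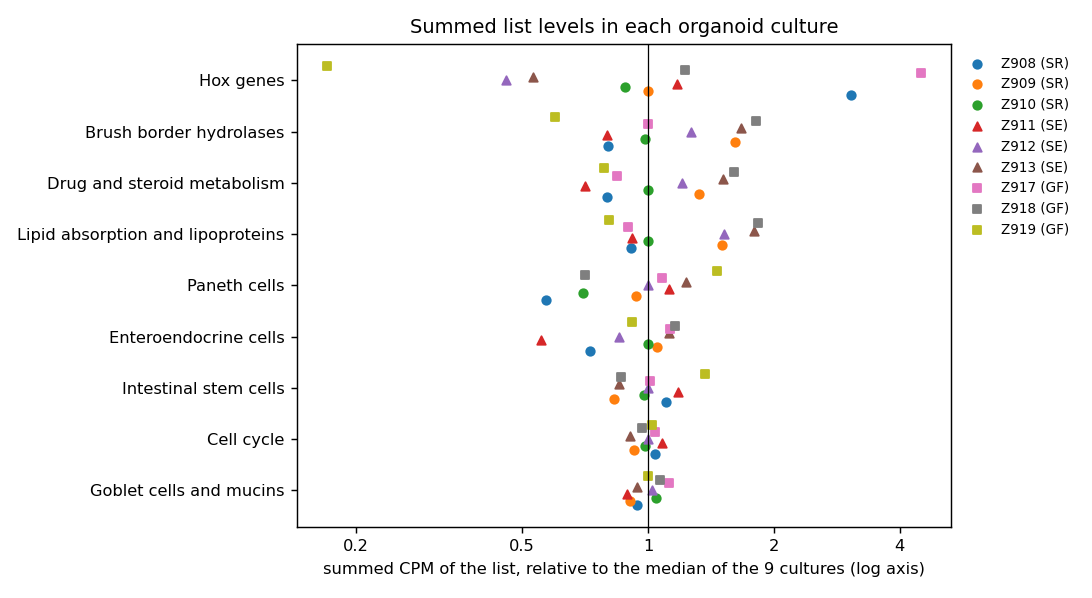
Summed CPM of 9 gene lists in each organoid culture, divided by the median of the 9 cultures (log axis, shape by facility). Goblet and cell cycle sums lie close to 1, hydrolase sums spread from 2805 CPM (Z919) to 8494 CPM (Z918), and Hox sums spread widest, from 6.19 CPM (Z919) to 163 CPM (Z917).

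Defence genes differed by pathway. Of 17 tested mucosal defence genes 14 were higher in organoids and 2 in MEFs (median 7.01, or 6.49 with genes near 0 counts at their bound). Ccl25, a chemokine that guides lymphocytes to the small intestine, lay between 258 and 428 CPM in the organoid libraries (median 341) and at 3.06, 2.68 and 2.14 CPM in the MEF libraries (log2 difference 7.01 ± 0.26, edgeR adjusted p = 3.7e-13), and Lypd8, which keeps bacteria from the epithelium, had a mean of 211 against 0.326 CPM. Tmem173, which encodes the DNA sensor adaptor STING, lay between 0 and 0.280 CPM in the organoid libraries (median 0.0602) and at 41.3, 42.4 and 30.5 CPM in the MEF libraries (log2 difference -8.73 ± 0.50, edgeR adjusted p = 1.0e-10). Complement C3 was higher in MEFs here (log2 difference -3.55 ± 0.73, edgeR adjusted p = 3.9e-04), with 1.33, 15.5 and 1.76 CPM in the MEF libraries and a reversed sign against the 9 partner libraries labelled untreated (3.43). Without MEF replicate 2 its difference was -1.52 and was not called. Ccl20 was not called, but was higher in organoids with the partner libraries (5.79). Of 17 tested inflammasome and pyroptosis genes 13 were higher in organoids and 2 in MEFs (median 7.38, or 5.56 with genes near 0 counts at their bound). Pycard, the adaptor ASC (ENSMUSG00000030793, chromosome 7, 127989708 to 127993867), lay between 186 and 312 CPM in the organoid libraries (median 229.7) and at 0.355, 0.100 and 0.458 CPM in the MEF libraries (log2 difference 9.64 ± 0.30, edgeR adjusted p = 3.8e-14). Nlrp6, a sensor of the gut epithelium, lay between 258 and 357 CPM in the organoid libraries (median 298) and at 0.284, 0.677 and 0.382 CPM in the MEF libraries (log2 difference 9.38 ± 0.23, edgeR adjusted p = 2.4e-15), and Naip6, a receptor for bacterial proteins, lay between 222 and 442 CPM in the organoid libraries (median 376) and at 0.284, 0.401 and 0.306 CPM in the MEF libraries (log2 difference 10.04 ± 0.29, edgeR adjusted p = 1.0e-14), although reads of the Naip copies may be shared. The inflammasome kinase Nek7 was higher in MEFs (121, 123 and 130.2 CPM against 16.8 to 33.5 CPM, -2.44 ± 0.14), and Nlrp3 reached at most 0.150 CPM in organoids and 0.955 CPM in MEF replicate 3, without which its call was lost. The pore-forming gasdermins Gsdmd (0.22 ± 0.31) and Gsdme (0.45 ± 0.44) were not called, but with the partner libraries labelled untreated Gsdmd was called higher in organoids (1.94).

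Of 16 tested antigen presentation genes 9 were higher in organoids and 3 in MEFs (median 0.92). The class I gene H2-K1 lay between 531 and 647 CPM in the organoid libraries (median 585) and at 48.4, 55.1 and 56.4 CPM in the MEF libraries (log2 difference 3.46 ± 0.11, edgeR adjusted p = 3.2e-14), H2-D1 differed by 0.78 ± 0.096, and H2-T3 by 9.24 ± 0.43, although class I genes are similar enough to share reads. Tapbp was higher in MEFs (-0.79 ± 0.14), as were Nlrc5 and Cd74 by at least 2.82-fold and 2.05-fold, and with the partner libraries labelled untreated the sign of Tapbp (0.32) and Cd74 (1.58) reversed. B2m, the invariant chain, was not called (0.12 ± 0.10), nor was Tap2, but both were called higher in organoids with the partner libraries (0.80 and 1.68). Cytokines, chemokines and their receptors leaned to MEFs, with 13 of 28 tested higher there and 7 higher in organoids (median -1.11). Csf1, the growth factor of macrophages, lay between 0.142 and 1.24 CPM in the organoid libraries (median 0.370) and at 505, 592 and 416 CPM in the MEF libraries (log2 difference -10.01 ± 0.26, edgeR adjusted p = 3.3e-15), and Il1rl1, the receptor for interleukin-33, lay between 0 and 1.75 CPM in the organoid libraries (median 0.257) and at 235, 226 and 244 CPM in the MEF libraries (log2 difference -8.95 ± 0.53, edgeR adjusted p = 1.7e-10). Il6st, the shared signal chain of the interleukin-6 family, was expressed in both groups (43.1 against 355 CPM). Higher in organoids were the mucosal chemokine Ccl28 (6.57 ± 0.33), Il10rb (1.40 ± 0.14) and Cx3cl1 (1.30 ± 0.22), and Mif and Tnfrsf1a were not called. Of 14 tested Toll-like receptors and adaptors 4 were higher in each group. Sigirr, an inhibitor of these receptors, lay between 39.9 and 57.3 CPM in the organoid libraries (median 48.5) and at 0.640, 1.204 and 1.22 CPM in the MEF libraries (log2 difference 5.59 ± 0.25, edgeR adjusted p = 2.9e-12), with Ticam1 and the RNA receptor Tlr3 on the same side (1.36 ± 0.22 and 3.37 ± 0.38). The receptors Tlr4 (-5.37 ± 0.81) and Tlr2 (-4.36 ± 1.07) and the adaptor Tirap (-0.73 ± 0.18) were higher in MEFs, and Tollip and Myd88 were not called.

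The extracellular matrix was the counterpart of the brush border in MEFs. Of 29 tested fibrillar collagen and matrix protein genes 27 were higher in MEFs and 1 in organoids (median -10.27, or -10.01 with genes near 0 counts at their bound). Fn1, which encodes fibronectin (ENSMUSG00000026193, chromosome 1, 71585520 to 71653200), lay between 0.993 and 5.20 CPM in the organoid libraries (median 1.54) and at 3469, 4134 and 2681 CPM in the MEF libraries (log2 difference -10.58 ± 0.31, edgeR adjusted p = 1.8e-14). Sparc, a collagen-binding glycoprotein, lay between 0.426 and 4.25 CPM in the organoid libraries (median 1.201) and at 2302, 2339 and 1943 CPM in the MEF libraries (log2 difference -10.44 ± 0.36, edgeR adjusted p = 1.4e-13). Fbln1, a fibulin of elastic fibres and basement membranes, was the exception and lay between 64.3 and 133 CPM in the organoid libraries (median 102) and at 46.6, 50.8 and 44 CPM in the MEF libraries (log2 difference 1.06 ± 0.20, edgeR adjusted p = 1.3e-04). All 20 tested genes that process or crosslink collagen were higher in MEFs (median -8.53, or -6.19 with genes near 0 counts at their bound). Serpinh1, the collagen chaperone, lay between 0.379 and 3.82 CPM in the organoid libraries (median 0.881) and at 1703, 1729.5 and 1476 CPM in the MEF libraries (log2 difference -10.27 ± 0.37, edgeR adjusted p = 2.3e-13), and the lysyl oxidase Lox lay between 0 and 1.24 CPM in the organoid libraries (median 0.188) and at 334, 355 and 281 CPM in the MEF libraries (log2 difference -9.86 ± 0.39, edgeR adjusted p = 7.0e-13). Pcolce, which speeds the trimming of procollagen, had a mean of 0.958 against 597 CPM.

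Basement membrane genes were divided by chain. Of 17 tested 12 were higher in MEFs and 3 in organoids (median -4.18, or -3.78 with genes near 0 counts at their bound). Col4a1, a chain of the network collagen IV, lay between 1.80 and 22.1 CPM in the organoid libraries (median 5.06) and at 1060, 1229.5 and 795 CPM in the MEF libraries (log2 difference -7.29 ± 0.46, edgeR adjusted p = 3.5e-10), with Col4a2 at -6.44 ± 0.40 and the proteoglycan Hspg2 at -5.95 ± 0.22. The genes higher in organoids included laminin chains of epithelial hemidesmosomes. Lamb3 lay between 35.8 and 87.9 CPM in the organoid libraries (median 45.2) and at 1.61, 5.19 and 4.09 CPM in the MEF libraries (log2 difference 3.82 ± 0.38, edgeR adjusted p = 1.3e-07), and Lama3 was low in both groups (at least 8.37-fold higher in organoids, with overlapping values and no call without MEF replicate 1 or 3). Agrn and Nid2 were not called. Integrins, the matrix receptors, were also divided, with 11 of 17 tested higher in MEFs and 6 in organoids (median -2.65, or -2.30 with genes near 0 counts at their bound). Itgb4, the integrin chain of hemidesmosomes, lay between 101 and 157 CPM in the organoid libraries (median 131) and at 0.261, 0.226 and 0.497 CPM in the MEF libraries (log2 difference 8.69 ± 0.26, edgeR adjusted p = 2.1e-14), and its partner Itga6 lay between 175 and 243 CPM in the organoid libraries (median 206) and at 51.2, 57.2 and 29.1 CPM in the MEF libraries (log2 difference 2.22 ± 0.18, edgeR adjusted p = 7.7e-09). The collagen receptor chain Itga2 differed by 8.38 ± 0.35. Itgb1, which pairs with many alpha chains, was higher in MEFs (-2.30 ± 0.098), as were the fibronectin and vitronectin receptor chain Itgav (-4.07 ± 0.17) and Itga3 (-1.56 ± 0.11).

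Of 31 tested matrix proteases and inhibitors 19 were higher in MEFs and 9 in organoids (median -6.98, or -3.04 with genes near 0 counts at their bound). Mmp2, a secreted gelatinase, lay between 0 and 0.731 CPM in the organoid libraries (median 0.128) and at 444, 517 and 386 CPM in the MEF libraries (log2 difference -10.89 ± 0.31, edgeR adjusted p = 1.0e-14), and its membrane-bound activator Mmp14 and inhibitor Timp2 were on the same side (-10.26 ± 0.28 and -8.37 ± 0.37). Organoids instead had the epithelial serine protease St14 (261 against 0.536 CPM), its inhibitor Spint2 (501 against 0.857 CPM) and Tmprss2 (204 against 0.346 CPM). Mmp23 (3.67 ± 1.70) and Serpine2 (-2.45 ± 1.08) were not called, although Mmp23 was called without culture Z908 (3.84) or Z919 (3.85) and Serpine2 without Z911 (-2.78). Heparan sulfate proteoglycans and their enzymes leaned to MEFs, with 11 of 17 tested against 4 higher in organoids (median -1.93). The syndecans split, since Sdc2 was higher in MEFs (-6.21 ± 0.35), Sdc1 in organoids (0.85 ± 0.13), and Sdc4 was not called (-0.19 ± 0.11). The enzymes divided as well, with Ext1 (-2.63 ± 0.19) and Ndst1 (-1.93 ± 0.19) higher in MEFs and Sulf2 (3.46 ± 0.19) and Hs6st1 (1.61 ± 0.11) in organoids. Gpc4 was not called.

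Actin, contractile and focal adhesion genes were higher in MEFs in 26 of 30 tested cases, with 1 higher in organoids (median -3.37, or -3.07 with genes near 0 counts at their bound). Flna, the actin crosslinker filamin A, lay between 82.9 and 157 CPM in the organoid libraries (median 111) and at 3135, 3565 and 2194 CPM in the MEF libraries (log2 difference -4.71 ± 0.15, edgeR adjusted p = 5.6e-14). The tropomyosins Tpm1 (-2.75 ± 0.087) and Tpm4 (-2.93 ± 0.11) were abundant in both groups and higher in MEFs. Mylk, the myosin light chain kinase, was the exception and lay between 31.7 and 72.8 CPM in the organoid libraries (median 50.9) and at 2.89, 1.18 and 5.16 CPM in the MEF libraries (log2 difference 4.09 ± 0.42, edgeR adjusted p = 1.9e-07), while the light chain Myl9 had 148, 155 and 133 CPM in MEFs and at most 0.142 CPM in organoids (log2 difference -10.70 ± 0.17, edgeR adjusted p = 7.2e-17). Actn4 (-0.37 ± 0.11) and Pdlim5 (-0.30 ± 0.097) stayed under the size asked for. The CArG box, the site of serum response factor, was found in 6 of 35 promoters of this list (17.1%), in 1.54% of promoters of genes higher in MEFs, in 1.66% of those of genes higher in organoids, in 1.38% of those of all tested genes and in 1.63% of all promoters. This motif was picked with the contractile list in view, so its share there is a description. The 35 promoters belong to 27 genes. The 2 genes of the list with the largest difference and a CArG box in the window were Myl9 and Fhl1, a LIM protein of muscle and stretched cells (-9.59 ± 0.43). Their RefSeq promoters in GRCm38.p6 are shown with the box, which reads as a match on both strands, in capitals.

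Myl9, chr2:156775214-156775513, plus strand: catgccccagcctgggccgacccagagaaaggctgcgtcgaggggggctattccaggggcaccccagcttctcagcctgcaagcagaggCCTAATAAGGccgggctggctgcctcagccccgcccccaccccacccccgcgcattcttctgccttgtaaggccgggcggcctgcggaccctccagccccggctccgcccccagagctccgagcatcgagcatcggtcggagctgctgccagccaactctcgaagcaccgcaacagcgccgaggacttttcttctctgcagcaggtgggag
Fhl1, chrX:56779433-56779732, plus strand: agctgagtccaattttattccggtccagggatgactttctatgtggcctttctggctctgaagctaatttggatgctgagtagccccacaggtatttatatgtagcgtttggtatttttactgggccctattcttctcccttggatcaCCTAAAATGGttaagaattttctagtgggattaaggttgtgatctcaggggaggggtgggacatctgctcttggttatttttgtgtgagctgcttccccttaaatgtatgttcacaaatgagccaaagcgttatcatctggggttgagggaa

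Hippo signalling, which restrains the co-activators YAP and TAZ, showed no member higher in organoids, with 16 of 23 tested higher in MEFs (median -4.08). The co-activators themselves differed. Yap1 lay between 122 and 152 CPM in the organoid libraries (median 135) and at 183, 188 and 186 CPM in the MEF libraries and was not called (log2 difference -0.45 ± 0.091, edgeR adjusted p = 3.2e-04), whereas Wwtr1, the gene of TAZ named here to complete the pair, had 139, 131 and 128 CPM in the MEF libraries and at most 0.994 CPM in an organoid library (-8.53 ± 0.33). Of the targets, the matricellular gene Ccn1 lay between 1.60 and 12.4 CPM in the organoid libraries (median 3.46) and at 532, 624 and 517 CPM in the MEF libraries (log2 difference -7.02 ± 0.41, edgeR adjusted p = 1.2e-10), and the receptor kinase Axl lay between 0.224 and 1.77 CPM in the organoid libraries (median 0.600) and at 586, 641 and 449.8 CPM in the MEF libraries (log2 difference -9.62 ± 0.31, edgeR adjusted p = 6.3e-14). Crim1 differed by -2.90 ± 0.11, and the kinase Lats1 was not called. GGAATG, the core of a TEAD site, was present in 14 of 24 promoters of this list (58.3%), in 12.4% of promoters of all tested genes and in 14.7% of all promoters, with similar shares for genes higher in MEFs (13.2%) and in organoids (13.7%). The Hippo list was made up in part of known YAP-TEAD targets, and its 24 promoters belong to 19 genes. The letters were also in 34.3% of promoters of the actin list, 27.3% of lipid absorption and 23.8% of the hydrolases. Shares were 10.6% for drug metabolism, 9.68% for fibrillar matrix and 5.0% for brush border structure.

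Growth factor signalling was distributed between both groups. Of 25 tested receptor tyrosine kinases 11 were higher in each group (median 0.30). Erbb3, a receptor for neuregulins, lay between 161 and 226 CPM in the organoid libraries (median 184) and at 4.50, 4.67 and 2.60 CPM in the MEF libraries (log2 difference 5.57 ± 0.20, edgeR adjusted p = 2.2e-13), with Ephb4 and Ephb2 also higher in organoids (1.24 ± 0.14 and 1.69 ± 0.11). The collagen receptors separated, since Ddr2 lay between 0 and 0.872 CPM in the organoid libraries (median 0.188) and at 494, 486 and 382 CPM in the MEF libraries (log2 difference -10.35 ± 0.31, edgeR adjusted p = 2.0e-14), whereas Ddr1 was not called (0.14 ± 0.14). Epha2 was higher in MEFs (-2.99 ± 0.18), and Erbb2 was not called. Of 25 tested growth factors 10 were higher in each group (median 0.54). Pdgfa, a ligand for mesenchymal cells, lay between 119 and 204 CPM in the organoid libraries (median 151) and at 22.7, 21.8 and 23.1 CPM in the MEF libraries (log2 difference 2.82 ± 0.17, edgeR adjusted p = 2.3e-10), with Kitl (1.88 ± 0.12) and, by a small margin and with overlap, Vegfa (0.55 ± 0.16, 0.49 and no call without MEF replicate 2, 0.50 without culture Z911) on the same side. Fgf7, the keratinocyte growth factor, ran the other way and lay between 0 and 1.90 CPM in the organoid libraries (median 0.0400) and at 68.6, 56.8 and 57.0 CPM in the MEF libraries (log2 difference -8.61 ± 0.77, edgeR adjusted p = 3.6e-08). Hbegf (-2.97 ± 0.29) and Pdgfc (-5.57 ± 0.39) were also higher in MEFs, and Ereg and Pdgfb were not called.

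TGF-beta and BMP signalling leaned to MEFs, with 25 of 31 tested genes higher there and 4 in organoids (median -5.07, or -3.34 with genes near 0 counts at their bound). Ltbp1, which stores latent TGF-beta in the matrix, lay between 0.142 and 1.18 CPM in the organoid libraries (median 0.320) and at 752, 887 and 554 CPM in the MEF libraries (log2 difference -10.31 ± 0.30, edgeR adjusted p = 1.7e-14), with the protease Bmp1 (-5.55 ± 0.21) and the receptor Bmpr1a (-0.69 ± 0.096). The receptor Tgfbr1 (1.24 ± 0.18) and the ligands Bmp7 (7.38 ± 0.35) and Gdf15 (5.23 ± 0.75) were higher in organoids, and Tgfbr2 and Bmp2 were not called. Of 27 tested Wnt genes 17 were higher in MEFs and 6 in organoids (median -2.54, or -1.37 with genes near 0 counts at their bound). Fzd5, a receptor of the crypt, lay between 156 and 212 CPM in the organoid libraries (median 191) and at 12.9, 12.9 and 8.56 CPM in the MEF libraries (log2 difference 4.04 ± 0.16, edgeR adjusted p = 5.4e-13). Wnt3, the ligand made by Paneth cells, lay between 5.33 and 20.0 CPM in organoids (median 6.79) with 0 counts in every MEF library, at least 75.5-fold higher. Wnt10b (-8.83 ± 0.74), Fzd2 (-2.54 ± 0.39) and Fzd6 (-2.04 ± 0.27) were higher in MEFs. The co-receptor Lrp5 was higher in organoids (0.64 ± 0.14, with overlap), and Lrp6 and Fzd4 were not called. Notch genes leaned to organoids, with 13 of 19 tested higher there and 4 in MEFs (median 2.05). The receptors divided, as Notch1 lay between 78.6 and 123 CPM in the organoid libraries (median 102) and at 42.5, 42.7 and 25.6 CPM in the MEF libraries (log2 difference 1.42 ± 0.17, edgeR adjusted p = 1.6e-06) and Notch2 lay between 17.1 and 35.9 CPM in the organoid libraries (median 24.1) and at 147, 154 and 117 CPM in the MEF libraries (log2 difference -2.49 ± 0.15, edgeR adjusted p = 2.4e-10), with Notch3 (-3.80 ± 0.78) and Hey1 (-6.77 ± 1.20) on the side of Notch2 and Dtx4 (2.88 ± 0.14) and Hes6 (2.75 ± 0.14) on that of Notch1. Rfng and Dll3 were not called.

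Hedgehog genes leaned to MEFs. Of 13 tested 9 were higher in MEFs and 1 in organoids (median -4.15). Ihh, the ligand that the gut epithelium sends to the mesenchyme, lay between 47.6 and 82.8 CPM in the organoid libraries (median 71.2) and at 0.0948, 0.0752 and 0.497 CPM in the MEF libraries (log2 difference 8.48 ± 0.39, edgeR adjusted p = 6.4e-12). Smo, the signal transducer, lay between 0.984 and 13.7 CPM in the organoid libraries (median 10.0) and at 149.6, 173 and 155 CPM in the MEF libraries (log2 difference -4.15 ± 0.38, edgeR adjusted p = 4.4e-08), and the transcription factor Gli3 lay between 0 and 0.619 CPM in the organoid libraries (median 0.0903) and at 83.7, 124 and 92.4 CPM in the MEF libraries (log2 difference -9.22 ± 0.42, edgeR adjusted p = 4.1e-12). Sufu, the inhibitor of Gli factors, differed less (-1.35 ± 0.16), and Ptch1 (-0.38 ± 0.17) and Disp1 (0.43 ± 0.23) were not called. Of 7 tested imprinted growth genes 3 were higher in organoids and 2 in MEFs. Grb10, which restrains insulin signalling, was higher in MEFs (-3.10 ± 0.16), as was Peg10 (at least 141-fold). Plagl1 (4.19 ± 0.48), the growth factor Igf2 (2.78 ± 0.46) and the cell cycle inhibitor Cdkn1c (3.77 ± 1.06) were higher in organoids, and Igf2r and Peg3 were not called.

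Cell cycle genes were expressed in both groups. Of 28 tested cell cycle genes 14 were higher in MEFs and 3 in organoids (median -0.53), and none of the 14 reached a log2 difference of 2. Top2a, a topoisomerase of dividing cells, lay between 435 and 587 CPM in the organoid libraries (median 520.3) and at 946, 964 and 844 CPM in the MEF libraries (log2 difference -0.83 ± 0.086, edgeR adjusted p = 2.3e-07), with Ccna2 (-0.59 ± 0.073) and the replication factor Mcm5 (-0.96 ± 0.12). Mki67, the standard proliferation marker, lay between 619.5 and 798 CPM in the organoid libraries (median 689) and at 573, 701 and 489 CPM in the MEF libraries and was not called (log2 difference 0.23 ± 0.11, edgeR adjusted p = 0.066), nor was Cdk4 (-0.47 ± 0.081). The genes higher in organoids were the cyclin Ccnd2 (1.18 ± 0.12) and the Myc relatives Mycl (4.46 ± 0.35) and Mycn (6.22 ± 0.87). Among 20 tested cell cycle inhibitors and p53 targets 9 were higher in organoids and 6 in MEFs (median 0.24). Cdkn2a, which encodes INK4A and ARF and accumulates in cultured fibroblasts, lay between 0 and 0.752 CPM in the organoid libraries (median 0.0602) and at 119, 108 and 149 CPM in the MEF libraries (log2 difference -9.65 ± 0.47, edgeR adjusted p = 1.2e-11). Cdkn1a, a cell cycle inhibitor induced by p53, lay between 122 and 167 CPM in the organoid libraries (median 141) and at 30.6, 37.8 and 30.0 CPM in the MEF libraries (log2 difference 2.10 ± 0.13, edgeR adjusted p = 2.0e-10), with Ccng1 (0.92 ± 0.13) and Btg2 (3.39 ± 0.15) also higher in organoids. Trp53 itself and its negative regulator Mdm2 were higher in MEFs (-0.85 ± 0.11 and -0.85 ± 0.14), and Cdkn1b and Zmat3 were not called.

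Energy metabolism genes leaned to organoids. Of 25 tested genes of the glycolysis list 14 were higher in organoids and 6 in MEFs (median 0.84). The tested members included Fbp1, Fbp2 and G6pc of the reverse path, gluconeogenesis, and the regulatory kinases Pdk1 and Pdk4. The count and the median are therefore not of glycolysis alone. Gapdh, the glyceraldehyde phosphate dehydrogenase, lay between 1866 and 2400.4 CPM in the organoid libraries (median 1999.8) and at 1343, 1481 and 1279 CPM in the MEF libraries (log2 difference 0.61 ± 0.095, edgeR adjusted p = 2.5e-05). Other shared enzymes differed little, with Ldha at 0.84 ± 0.12, and Pkm (-0.30 ± 0.097) and Eno1 (0.27 ± 0.12) not called. Hk1, the first kinase of the pathway, was higher in MEFs (-2.58 ± 0.15), with Pgam1 and Pfkm at -0.55 ± 0.13 and -0.84 ± 0.18. Of 26 tested genes of fatty acid oxidation and ketogenesis 24 were higher in organoids and 2 in MEFs (median 1.60). Hadh, a mitochondrial dehydrogenase of the cycle, lay between 414 and 663 CPM in the organoid libraries (median 561) and at 49.4, 42.5 and 47.5 CPM in the MEF libraries (log2 difference 3.58 ± 0.16, edgeR adjusted p = 2.5e-12), with Hadha (1.41 ± 0.11) and Acaa2 (2.75 ± 0.16). Acsl4 (-3.40 ± 0.23) and Cpt1c (-3.94 ± 0.96) were higher in MEFs. Cholesterol synthesis genes were higher in organoids in 14 of 22 tested cases and in MEFs in none (median 0.89), mostly by small amounts. The synthesis enzymes Hmgcs1 (1.09 ± 0.12) and Cyp51 (0.87 ± 0.100) were higher in organoids, and Fdps was not called.

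Of 20 tested genes of apical trafficking and polarised sorting 15 were higher in organoids and 3 in MEFs (median 4.46). The galectins differed in direction. Lgals4, which sorts proteins to the apical membrane, lay between 2358 and 3036 CPM in the organoid libraries (median 2608) and at 4.48, 3.29 and 4.93 CPM in the MEF libraries (log2 difference 9.28 ± 0.18, edgeR adjusted p = 2.5e-16), and Lgals1, a galectin of mesenchymal cells, lay between 3.17 and 9.03 CPM in the organoid libraries (median 4.45) and at 2390.2, 1984 and 2138 CPM in the MEF libraries (log2 difference -8.73 ± 0.22, edgeR adjusted p = 2.5e-15). Lgals2 (8.60 ± 0.36) and the membrane protein Mal2 (9.43 ± 0.21) were on the organoid side, Lgals3 (-2.22 ± 0.34) and the adaptor Ap1m1 (-1.37 ± 0.14) on the MEF side, and Rab11a was not called. Sytl4 was not called either (3.88 ± 1.70), but was called without MEF replicate 1 (7.72) and without culture Z908 (4.05) or Z911 (4.04). The 22 genes taken from the transcripts and proteins that the study selected on these samples as a signature of the organoids were all called in the RNA counts, with 9 higher in organoids and 13 in MEFs (median -1.59). Ena and Q8R164 of the study's signature were not in this list. Some members were selected by the study on protein levels, and m-ICc12 cells were a further group in that selection. As a list chosen on these libraries it is no independent evidence. Beside Pycard, Krt18 and Lgals1, it held the retinol dehydrogenase Rdh11 (1.99 ± 0.11), the protease Capn2 (-5.09 ± 0.39) and the YAP inhibitor Amotl2 (-5.36 ± 0.21). Of 10 NF-kB targets listed to check the labels, 3 were higher in organoids (Relb, Birc3 and Casp4) and 4 in MEFs, among them Nfkb2 (-1.81 ± 0.14), Cyba (-1.23 ± 0.25) and Tnfaip3 (-0.81 ± 0.20), while Nfkbia and Nfkbie were not called. With the partner libraries labelled untreated, Cyba (1.37), Tnfaip3 (0.74) and Nfkbia (2.28) stood higher in organoids than in MEFs, and the calls of Nfkb2 (-0.01), Sytl2 (-0.55), Ptgs1 (-2.07), Tirap (-0.43) and Trp53 (-0.46) were lost.

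Beyond the lists, the 10 genes with the smallest p in each direction among those with a mean of at least 100 CPM in the higher group were taken. Those higher in organoids included Hnf4a, Muc13, Pigr, the desmosomal cadherin Dsc2 (9.72 ± 0.15), the mitochondrial carrier Ucp2 (9.05 ± 0.15), the kinase Mapk13 (9.38 ± 0.17), the phosphatase inhibitor Ppp1r1b (9.33 ± 0.18), Tmem30b (9.49 ± 0.17) and Sel1l3 (8.96 ± 0.16). Those higher in MEFs included the caveola genes Cav1 (-9.83 ± 0.21) and Cavin2 (-10.21 ± 0.16), the matrix genes Col6a1 (-10.77 ± 0.21), Ccdc80 (-11.09 ± 0.23) and Loxl1 (-10.83 ± 0.23), Myl9, Angptl2 (-11.29 ± 0.23), Kirrel (-10.83 ± 0.20) and Cd109 (at least 425-fold). The 10 genes that took the most reads in each group, without regard to gene length, were mostly translation, cytoskeleton and mitochondrial genes. Eef1a1, a translation elongation factor, lay between 14703 and 19314 CPM in the organoid libraries (median 16620) and at 12345, 10982 and 11785 CPM in the MEF libraries (log2 difference 0.51 ± 0.086, edgeR adjusted p = 6.0e-05), a call lost without MEF replicate 2 (0.48) or culture Z910 (0.48), and the mitochondrial mt-Co1 lay between 9005 and 30721 CPM in the organoid libraries (median 13782) and at 4171, 2836 and 4069 CPM in the MEF libraries (log2 difference 2.00 ± 0.33, edgeR adjusted p = 4.9e-05). Eef2 (0.62 ± 0.089), Rplp0 (0.69 ± 0.090), the lipid desaturase Scd2 (1.04 ± 0.094), mt-Cytb (1.09 ± 0.28), mt-Nd1 (1.29 ± 0.32) and mt-Nd2 (1.42 ± 0.29) were higher in organoids, and Actb (-1.22 ± 0.081) in MEFs. Rpsa (0.47 ± 0.11), Hsp90ab1 (-0.39 ± 0.089) and Hspa8 (-0.07 ± 0.11) were not called. Lars2 was not called either and spread from 730.5 to 6619.6 CPM among the MEF libraries.

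Set beside m-ICc12, a mouse epithelial line from the small bowel of which 3 libraries carry the same TNF label, the organoids showed a smaller difference for some of these genes. For the m-ICc12 libraries, too, the label and the file code disagreed on TNF. In a separate fit of 12826 genes, 4030 (31.4%) were higher in organoids and 3652 (28.5%) in m-ICc12 cells. This comparison shares the organoid libraries with the one above. Krt18 was not called there (379, 479 and 504 CPM in m-ICc12, log2 difference 0.16 ± 0.15), and Krt8 differed by only 0.53 ± 0.11. Hnf4a had 188, 189 and 140.4 CPM in m-ICc12 and was higher in organoids (log2 difference 2.66 ± 0.12), as was Elf3 with 53.1, 60.2 and 39.3 CPM (log2 difference 2.69 ± 0.17). The m-ICc12 values of both factors lay between those of organoids and MEFs. Cdh1 stood at 6.75, 1.91 and 1.29 CPM (log2 difference 8.60 ± 0.38) and Pycard at 1.39, 0.505 and 0.191 CPM (log2 difference 8.86 ± 0.33). Vim at 2107, 2267 and 2610 CPM (log2 difference -8.26 ± 0.24) overlapped the MEF range of 2346 to 2575 CPM. The CPM of this paragraph were scaled by TMM factors over all 27 libraries, unlike those above. Col1a1 by contrast was low in m-ICc12 (7.44, 3.05 and 1.86 CPM), and Acta2 was too (3.81, 0.319 and 0.953 CPM), against 1244 to 1366 CPM for Acta2 in MEFs. The first m-ICc12 library stood apart, with 6071103 counts against 36135139 and 20305584 and 17.0% of its counts in 10 genes against 5.02% and 8.45%, and it gave the highest m-ICc12 value for Cdh1, Pycard, Col1a1 and Acta2.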

How the data were processed

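Total RNA was sequenced as single-end reads from a poly-A library kit, which the labels call stranded and the study's methods name without that word. The deposited files hold raw read counts per gene, which the authors made after adapter removal; the submitters' processing notes name Trimmomatic, STAR 2.5.4b, featureCounts and GRCm38, whereas the study's methods give another STAR version and the R package GenomicRanges for counting. How multi-mapping reads and strand were treated in counting is not given in the sources used here, so that near-identical copies and antisense partners are uncertain.

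The 9 organoid libraries were compared with the 3 MEF libraries by edgeR 4.0.16 (R 4.3.3), with TMM factors, the quasi-likelihood F-test and Benjamini-Hochberg adjustment, over genes that reached 10 counts in 50% or more of one group's libraries. The SE is the size of the log2 difference divided by the square root of F. Genes were called at an adjusted p under 0.05 and a difference of at least 0.5, and 3 counts per library were the floor for bounds. Symbols came from GENCODE vM21 (22291 of 22524 genes). Summaries and plots used Python 3.11.15, numpy 2.4.6, pandas 2.3.3 and matplotlib 3.10.9. On simulated data with 200 of 12215 genes changed by a log2 of 1, edgeR recovered 68.5% with 6.803% false calls, and DESeq2 1.42.0 recovered 74.5% with 16.292% false calls. These rates hold for that small share of changed genes. In the comparison itself 4371 and 4066 of 13201 genes were called, and recovery with such a large share was not tested.

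The groups, the gene lists and the tests were chosen with earlier results of these data known. Named genes are the 4 markers, the 10 genes per direction with the smallest p at a mean of at least 100 CPM, up to 3 called members per list and direction and up to 2 members not called by mean CPM, the 10 genes with the largest mean CPM in each group, and genes that complete a pair or complex. Mgam2, Pla2g2a, H19 and Meg3 were not found under these symbols. Alternatives were DESeq2, 1 fit of 27 libraries, no count filter, other scaling factors, each facility alone, the libraries labelled untreated, other call rules and leaving out each library. Counting depth bounds the precision of low genes, and intervals were not computed from it. Proteome data were not analysed here. Some named genes that the rule selects are not reported here.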

Additional observations from a re-analysis of the deposited data

Results flagged for a closer look

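Of 268 named genes whose 9 organoid libraries could be examined for a library far from the others (Dixon's criterion for 9 values), 25 had one. The nominal rate of about 1 in 20 is for independent, normally distributed values, which these CPM were not shown to be. The count is therefore not set against chance. In each case the outlying level is given against that of the nearest library. Culture Z911, the shallowest library, stood highest for Cd68 (4.79 against 2.34 CPM), Esam (11.8 against 4.44 CPM), Apoe (29.9 against 17.5 CPM), Tgfbr1 (85.1 against 66.2 CPM), mt-Co1 (30720 against 18110 CPM), mt-Cytb (10350 against 6795 CPM) and mt-Nd1 (10590 against 5872 CPM). Culture Z919 stood highest for Olfm4 (681 against 352 CPM), Fn1 (5.20 against 2.47 CPM), Sparc (4.25 against 2.08 CPM), Serpinh1 (3.82 against 1.53 CPM), Lamb3 (87.9 against 61.5 CPM) and Wnt3 (20.0 against 9.59 CPM). Culture Z917 stood highest for Gsdme (24.3 against 13.6 CPM), Gsdmd (13.2 against 8.81 CPM), Col4a1 (22.1 against 7.49 CPM) and Capn2 (30.3 against 15.8 CPM), and lowest for Pigr (1635 against 1884 CPM). Culture Z908 stood highest for Ppp1r1b (1063 against 933 CPM), Cldn7 (655 against 548 CPM) and Ddr1 (108 against 83.4 CPM), and lowest for Cyp51 (316 against 384 CPM). Culture Z918 stood highest for Nek7 (33.5 against 24.5 CPM) and Tlr3 (20.7 against 13.7 CPM), and Z910 for Hoxa3 (8.56 against 4.64 CPM). These are single cultures without a second library of the same label, and the cause was not tested. For 0 named genes did all 3 cultures of 1 facility lie above and all 3 of another below every MEF library.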

How the results depend on the processing

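No paired analysis was possible because the organoid and MEF libraries share no replicate number. The counts of 4371 genes higher in organoids and 4066 higher in MEFs stayed within 1.5 times under every alternative except a log2 difference of at least 2 (2227 and 1770), and ran from 4245 to 4462 and from 3971 to 4169 when 1 library was left out. DESeq2 called 4264 and 4119, the organoid libraries labelled untreated gave 4267 and 3858, library size alone 4243 and 4223, and upper-quartile factors 4504 and 3919. Within the facilities, SR gave 4280 and 4029, SE 4215 and 3929, and GF 4104 and 3901. For the 329 named genes, 6786 of 6900 pairs of gene and alternative kept direction and call, 36 lost the call and 72 gained it. The 6 reversals all came with the organoid libraries labelled untreated, where the log2 difference was 3.43 for C3, 0.32 for Tapbp, 1.58 for Cd74, 1.37 for Cyba, 0.74 for Tnfaip3 and 2.28 for Nfkbia, and the NF-kB list had 8 genes higher in organoids and 0 in MEFs. Of 2300 list counts 2259 stayed within 1.5 times. With a difference of at least 2, cholesterol synthesis kept 1 of 14 calls and fatty acid oxidation 10 of 24 in organoids, and cell cycle 0 of 14 in MEFs. With 3 MEF libraries the spread of that group is poorly known, and genes near the floor of 3 counts give bounds only.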
